A study of Mus musculus with 9 samples.

Results

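The caveolins and cavins are the coat genes of caveolae, and all 7 of them in the mouse were followed here: the caveolins Cav1, Cav2 and Cav3 and the cavins Cavin1, Cavin2, Cavin3 and Cavin4, which older annotations call Ptrf, Sdpr, Prkcdbp and Murc. Probes of these genes were found by accession and not by their signal. The gene family itself was chosen with earlier results of these data known. The 7 genes, of 31758 genes named by symbol or accession on the array, had 12 probes, and 11 of these were kept, being well above background on 4 or more arrays of 9. The study compared whole hearts of 4 RORasg/sg and 5 wild-type (WT) male mice, 1 single-colour Agilent array per heart. RORasg/sg mice are homozygous for the staggerer mutation, a germline deletion within the gene Rora, which encodes the nuclear receptor RORalpha, so every cell of the animal carries it. Both groups were labelled C57BL/6, were 3 to 4 months old, were weaned at 3 weeks onto NIH31 diet and received no treatment. Each array carried the RNA of a separate mouse. In whole hearts, fewer cells of a type and less RNA per cell cannot be told apart.

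Caveolae are small flask-shaped pits of the plasma membrane that buffer membrane tension and gather signalling proteins. Caveolins are hairpin proteins inserted into the inner leaflet of the membrane, and cavins form a coat around the bulb of the pit, with Cavin1 needed for its formation. Cav1 and Cav2 are abundant in endothelial cells and adipocytes, and Cav3 takes their place in cardiac and skeletal muscle cells, where Cavin4 is also found. Cav3 has been reported as a RORalpha target in skeletal muscle cells, which sets the question of its level in a heart without functional RORalpha.

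The 250 bases before the transcription starts of Cav3 and Cavin4 are shown (RefSeq, GRCm38.p6), because Cav3 is the reported target and Cavin4 had the smallest p of the members. Capitals mark the letters AGGTCA, the half-site that RORalpha is known to bind, here searched on both strands. The windows are chr6:112459255-112459504 for Cav3 and chr4:48663264-48663513 for Cavin4, both on the plus strand.
Cav3: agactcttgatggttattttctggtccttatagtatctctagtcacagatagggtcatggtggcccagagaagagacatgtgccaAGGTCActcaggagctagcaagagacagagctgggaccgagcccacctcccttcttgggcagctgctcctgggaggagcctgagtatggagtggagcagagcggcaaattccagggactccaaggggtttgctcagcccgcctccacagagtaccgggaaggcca
Cavin4: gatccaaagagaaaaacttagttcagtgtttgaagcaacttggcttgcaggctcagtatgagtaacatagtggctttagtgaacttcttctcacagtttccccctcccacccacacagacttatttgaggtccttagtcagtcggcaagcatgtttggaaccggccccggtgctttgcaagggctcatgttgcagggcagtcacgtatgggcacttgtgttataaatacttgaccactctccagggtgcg
Of 8 listed starts of 6 member genes, AGGTCA was in 1, that of Cav3, lying 165 to 160 bases before the start and on the strand of the gene. The windows of the Cavin1 starts overlap almost fully. Cavin3 had no listed start and was not searched. Among all 32851 listed promoters of the same length, 14.0% held AGGTCA on either strand. The longer ROR response element consensus, which itself ends in a half-site of this kind and so overlaps AGGTCA, was in 0 of the 8 member windows and in 0.332% of all promoters. These matches describe letters in a window and not binding.

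On 2 of the 3 probes of Rora, all RORasg/sg hearts lay below all WT hearts. Its probe A_51_P477779 had scaled log2 signals of 0.08, -2.71, -1.01 and -1.99 in RORasg/sg hearts 1 to 4, against 2.87, 3.29, 2.88, 1.51 and 3.06 in WT hearts 1 to 5. Scaled log2 signal is log2 of the processed spot intensity minus the 75th percentile of the array, so 0 is the 75th percentile. Array brightness varied, with a 75th percentile of 264 to 773 in RORasg/sg and 436 to 684 in WT hearts. The 4 arrays with a 75th percentile below 500 (RORasg/sg 2, 3 and 4 and WT 4) are named dimmer here, and the remaining 5 brighter. Brightness and genotype thus largely cannot be told apart, and RORasg/sg 1 was the single mutant heart among the brighter arrays. The dimmer arrays were also less like the brighter WT arrays in profile. Their correlations to those arrays had medians of 0.833, 0.769 and 0.714 in RORasg/sg 2, 3 and 4, and 0.874 in WT 4. For the brighter arrays the medians were 0.956 in RORasg/sg 1 and 0.972 to 0.975 in WT hearts. Scaling an array does not change a correlation, so this difference remained after scaling. Its cause was not tested. Over all 36405 kept probes the median log2 difference, RORasg/sg minus WT, was 0.31, so a member at 0 lay below the typical probe.

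No caveolin or cavin probe passed the test for a difference between RORasg/sg and WT hearts. Of the 11 kept probes, 0 passed limma's adjusted p threshold of 0.05, where 0.00275% of all probes did, and the adjusted p-values of the members lay between 0.315 and 0.932. At an unadjusted p under 0.05 there were 2 lower members (8.27% of all probes) and 1 higher member (4.5% of all probes), which were Cavin4, Cavin1 A_52_P560022 and Cav1 A_52_P306845. On 5 of the 11 probes the RORasg/sg mean was below the WT mean, where 38.3% of all probes had a difference below 0. The 2 groups overlapped on each of the 11 probes, while 3.05% of all probes had groups that did not overlap (1.83% lower and 1.23% higher in RORasg/sg). The median log2 difference of the members was 0.073. Rora, the mutated gene itself, did not pass the threshold either. Its log2 differences were -4.13 (A_51_P477779, limma adjusted p = 0.296), -5.34 (A_52_P652442, adjusted p = 0.296) and -1.08 (A_52_P652950, adjusted p = 0.444). A probe that was not called can thus still differ between the genotypes.

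The absence of calls depended on RORasg/sg 1, the single mutant heart among the brighter arrays. With it left out, all mutant arrays were dimmer, while among WT arrays only WT 4 was. Genotype and brightness then largely coincided, so a call in that setting cannot be assigned to either. The same holds for each value given below without RORasg/sg 1. With brightness as a covariate, 0 member probes and 0 of all probes passed. That fit too had few arrays to separate genotype from brightness. Without RORasg/sg 1, 6 of the 11 member probes passed the threshold. So did 35% of all probes, so a call was common in that setting. The 6 were both Cav1 probes, in opposite directions, and Cavin1 A_51_P237752, Cavin1 A_52_P560022, Cavin3 and Cavin4. Leaving out any one of the other hearts left 0 member probes past the threshold. With weights estimated for each array, 7 member probes passed, as did 49.6% of all probes. Over the 5 brighter arrays 1 member probe passed, Cavin1 A_51_P120239, as did 3.71% of all probes.

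**Figure D1:**
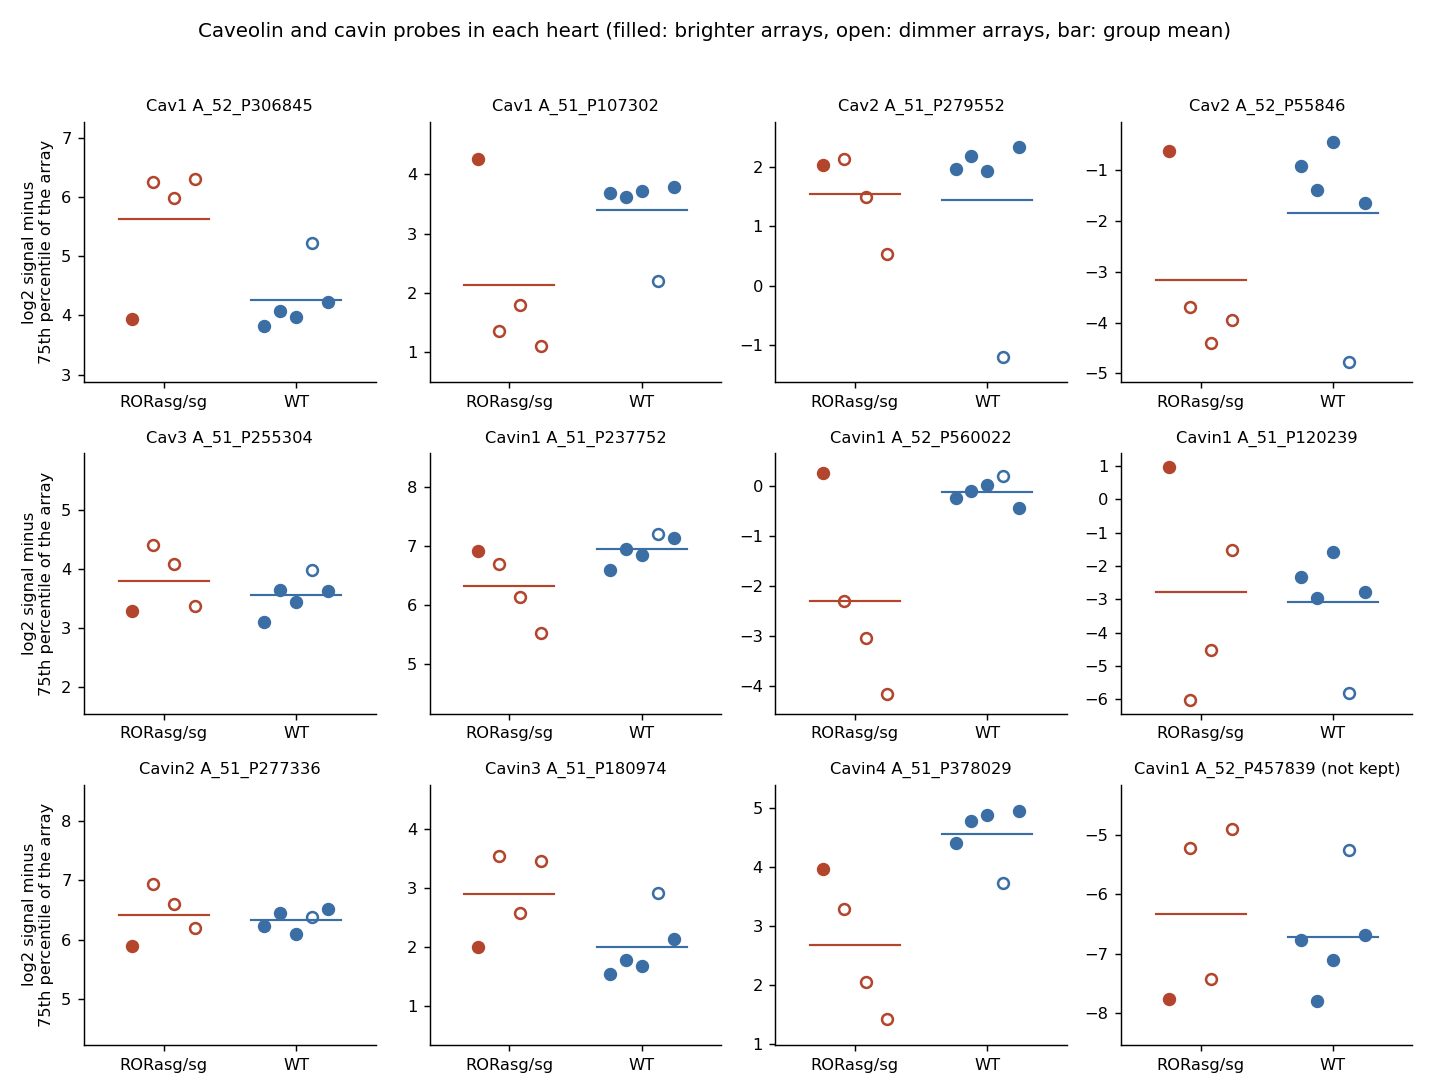
Scaled log2 signal (log2 processed signal minus the 75th percentile of the array) of each of the 12 caveolin and cavin probes, RORasg/sg hearts left and WT hearts right in each panel. Filled points are brighter arrays, open points dimmer arrays and bars group means. On most probes RORasg/sg 1 lies among the WT hearts, and the groups overlap on all 11 kept probes.

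Cav3, the muscle caveolin and the reported RORalpha target, did not pass the test for a difference between genotypes. Its single probe, A_51_P255304, had processed signals of 7548, 6165, 6635 and 2732 in RORasg/sg hearts 1 to 4, against 5868, 8003, 6800, 6870 and 6738 in WT hearts 1 to 5. Only RORasg/sg 4 stood below all others on this unscaled intensity, and it was also the dimmest array. After scaling, the values were 3.29, 4.40, 4.09 and 3.37 in RORasg/sg hearts and 3.10, 3.64, 3.43, 3.98 and 3.62 in WT hearts. The groups overlapped, with the highest values in RORasg/sg 2 and 3 and the lowest in WT 1.

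The log2 difference of Cav3 was 0.23 (SE 0.366, 95% interval -0.57 to 1.03), with group means of 3.79 ± 0.545 in RORasg/sg (SD, n = 4) and 3.55 ± 0.321 in WT hearts (SD, n = 5). It did not pass the threshold (limma adjusted p = 0.702, exact two-sided permutation p = 0.429 over all splits of the arrays). The interval leaves room for a change of up to 1.03 upward and 0.57 downward on the log2 scale, so a moderate change in either direction was not detectable with these arrays. Relative to the median of all probes Cav3 lay slightly lower, and without scaling its difference was -0.34. Within slide 1 (RORasg/sg 1 and 2, WT 1 and 2) the difference was 0.47 and within slide 2 (RORasg/sg 3 and 4, WT 3 and 4) it was 0.02.

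Cpt1b, the muscle form of the mitochondrial carnitine palmitoyltransferase and another reported RORalpha target in muscle cells, also gave no call. It had scaled log2 signals of 6.44, 7.28, 6.42 and 6.66 in RORasg/sg hearts, against 6.76, 7.15, 6.88, 7.06 and 7.25 in WT hearts. RORasg/sg 1, 3 and 4 were below all WT hearts and RORasg/sg 2 was above them. These values are of its brightest kept probe, whose log2 difference was -0.32 (SE 0.239, limma adjusted p = 0.458). As the mean of all its kept probes the difference was -0.85 (limma adjusted p = 0.398). The Cpt1b difference was below 0 under all 28 alternative settings tried. Among these, the filters and eBayes settings could not change the difference of a probe.

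Cav1, the principal caveolin of endothelial cells and adipocytes, gave opposite differences on its 2 probes. The brighter of them, A_52_P306845, had 3.94, 6.26, 5.99 and 6.31 in RORasg/sg hearts, against 3.83, 4.07, 3.97, 5.22 and 4.23 in WT hearts. RORasg/sg 2, 3 and 4 were above every WT heart on this probe, while RORasg/sg 1 was among the WT hearts. The second probe, A_51_P107302, had 4.27, 1.36, 1.80 and 1.10 in RORasg/sg hearts, against 3.69, 3.61, 3.73, 2.19 and 3.79 in WT hearts. Here the same 3 mutant hearts were below every WT heart, and RORasg/sg 1 was above them all. WT 4, the dimmer WT array, moved with the dimmer mutant arrays on both probes: it was the highest WT heart on the first and the lowest on the second.

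The log2 differences of Cav1 were 1.36 (SE 0.506, limma adjusted p = 0.352) for A_52_P306845 and -1.27 (SE 0.643, limma adjusted p = 0.393) for A_51_P107302. Without RORasg/sg 1 they were 1.92 (limma adjusted p = 0.00587) and -1.98 (limma adjusted p = 0.0131). Over the 5 brighter arrays, with RORasg/sg 1 as the only mutant heart and its spread assumed to be that of WT, they were -0.08 and 0.56, so both signs turned. Within slide 1 the differences were 1.15 and -0.84, and within slide 2 they were 1.55 and -1.51. The 2 differences were 2.63 apart on the log2 scale. Among 6550 genes with several kept probes, 10.1% had probes at least as far apart, and their median distance was 1.002. Which Cav1 probe reports the level of the gene was not tested, and no direction is given for Cav1.

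**Figure D2:**
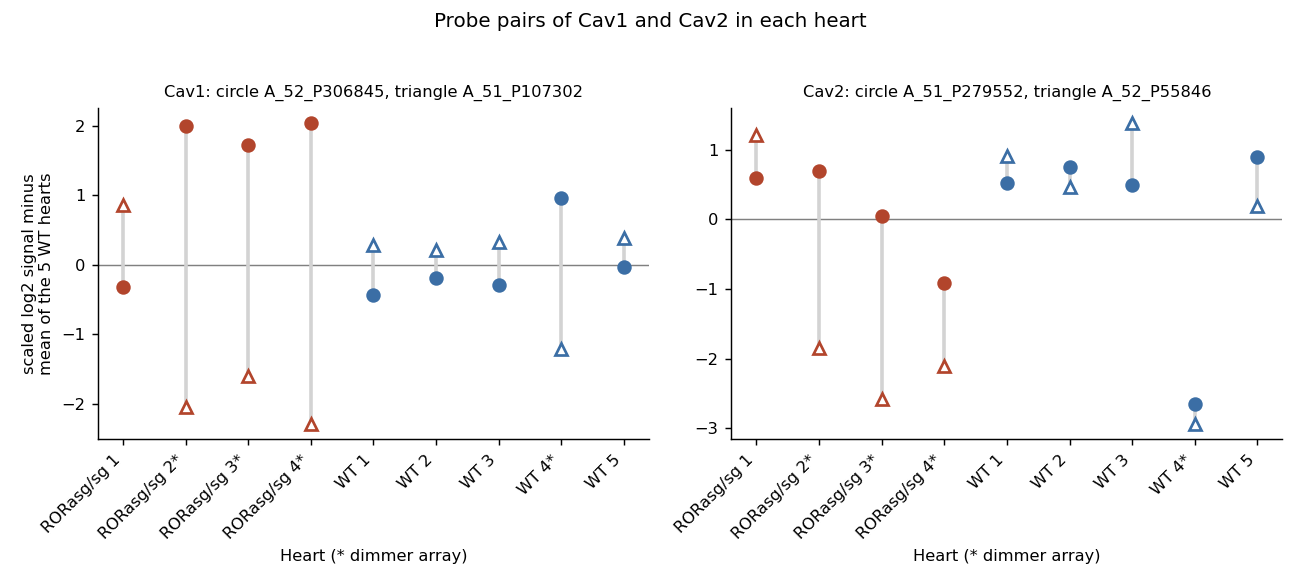
Scaled log2 signal of the 2 probes of Cav1 (left) and of Cav2 (right) in each heart, each probe set to the mean of the 5 WT hearts (y axis, log2), RORasg/sg hearts first and WT hearts after them, with dimmer arrays starred. The Cav1 probes move apart in opposite directions on the 4 dimmer arrays, WT 4 included.

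Cav2, which forms mixed oligomers with Cav1 and depends on it to reach the cell surface, had no called difference between genotypes. Its probe A_51_P279552 had scaled log2 signals of 2.04, 2.14, 1.495 and 0.53 in RORasg/sg hearts, against 1.97, 2.19, 1.93, -1.21 and 2.33 in WT hearts. WT 4 was the lowest of all 9 hearts and RORasg/sg 4 the next. The log2 difference was 0.11 (SE 0.727, 95% interval -1.48 to 1.70, limma adjusted p = 0.932), and without WT 4 it was -0.56. This interval is wide, so changes in either direction were not detectable here.

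This Cav2 probe was printed as 10 spots per array, which gave a measure of spot error within an array. The spots of 1 array had a coefficient of variation between 3.59% and 8.06%. The array means of unscaled signal were 3179, 1285, 1101 and 381 in RORasg/sg hearts, against 2670, 2929, 2411, 188 and 2757 in WT hearts. These unscaled means include the brightness of each array, and the spot error covers the printing and reading of 1 array only. What set the spread between hearts was not tested.

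**Figure D3:**
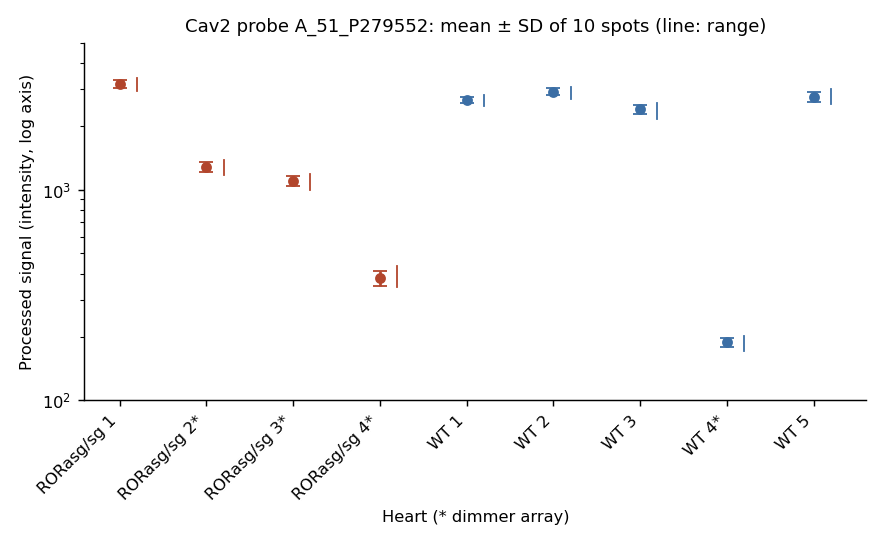
Processed signal (intensity, log axis) of the 10 spots of Cav2 probe A_51_P279552 on each array, RORasg/sg hearts first and WT hearts after them, as mean ± SD with the range beside it. The signal is not scaled for array brightness, and WT 4 has the lowest mean at 188.

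The second Cav2 probe, A_52_P55846, had -0.62, -3.69, -4.41 and -3.94 in RORasg/sg hearts, against -0.93, -1.38, -0.45, -4.78 and -1.65 in WT hearts. The 4 dimmer arrays were the 4 lowest, and WT 4 was the lowest of all. Its log2 difference was -1.33 (SE 0.955, limma adjusted p = 0.443). Between hearts of the brighter arrays, RORasg/sg 1 was within the WT range.

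Cavin1, the cavin that caveola formation requires, had 4 probes, of which 1, A_52_P457839, was not well above background on any array and has no fold change. The brightest probe, A_51_P237752, had scaled log2 signals of 6.91, 6.70, 6.14 and 5.53 in RORasg/sg hearts, against 6.60, 6.94, 6.85, 7.20 and 7.13 in WT hearts. RORasg/sg 3 and 4 were below all WT hearts, and RORasg/sg 1 and 2 were within the WT range. WT 4 was the highest of all 9 hearts on it, so the dimmer WT array was not low on this probe. Its log2 difference was -0.63 (SE 0.296, 95% interval -1.27 to 0.02, limma adjusted p = 0.392), and without RORasg/sg 1 it was -0.82 (limma adjusted p = 0.0382). Within slide 1 the difference was 0.03 and within slide 2 it was -1.19.

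The Cavin1 probe A_52_P560022 had 0.27, -2.29, -3.04 and -4.17 in RORasg/sg hearts, against -0.24, -0.09, 0.03, 0.22 and -0.43 in WT hearts. RORasg/sg 2, 3 and 4 were far below all WT hearts, and RORasg/sg 1 was above them all, while WT 4 was the highest WT heart. The log2 difference was -2.21 (SE 0.742, limma adjusted p = 0.332, exact permutation p = 0.0952). It was -3.06 without RORasg/sg 1 (limma adjusted p = 0.00292) and 0.45 over the 5 brighter arrays. The third kept probe, A_51_P120239, spread over several log2 units in both groups, with 0.99, -6.03, -4.53 and -1.50 in RORasg/sg hearts and -2.33, -2.95, -1.58, -5.80 and -2.79 in WT hearts. It was well above background on 3 of 4 RORasg/sg and 4 of 5 WT arrays, and its log2 difference of 0.32 (SE 1.28, limma adjusted p = 0.886) has little precision. The 3 Cavin1 differences spanned 2.52 on the log2 scale, a distance that 11.6% of genes with several probes reached.

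Cavin2, which helps to bend the caveolar membrane, had a difference smaller than its standard error. Its scaled log2 signals were 5.90, 6.94, 6.60 and 6.20 in RORasg/sg hearts, against 6.23, 6.46, 6.09, 6.38 and 6.53 in WT hearts. The 2 groups interleaved. The log2 difference was 0.07 (SE 0.259, 95% interval -0.49 to 0.64, limma adjusted p = 0.870). It was -0.31 after quantile normalization and -0.50 without scaling, so the sign depended on the scaling.

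Cavin3, which binds protein kinase C delta and shapes caveolar traffic, had scaled log2 signals of 2.01, 3.55, 2.58 and 3.45 in RORasg/sg hearts, against 1.55, 1.78, 1.67, 2.92 and 2.13 in WT hearts. RORasg/sg 2 and 4 were above all WT hearts, and WT 4 was the highest WT heart. The log2 difference was 0.89 (SE 0.466, 95% interval -0.13 to 1.91, limma adjusted p = 0.396, exact permutation p = 0.111). Within slide 1 it was 1.11 and within slide 2 it was 0.72. It was above 0 under all 28 alternatives, of which the filters, probe rules and eBayes settings could not change it. It was 0.22 both with brightness as a covariate and over the 5 brighter arrays, and without RORasg/sg 1 it was 1.18 (limma adjusted p = 0.0487).

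Cavin4, the muscle-restricted cavin that joins Cav3 caveolae of cardiac muscle, had the lowest p of the members. Its processed signals were 12100, 2856, 1627 and 713 in RORasg/sg hearts, against 14530, 17720, 18560, 5753 and 16930 in WT hearts. On this unscaled intensity RORasg/sg 2, 3 and 4 were below all WT hearts, and RORasg/sg 1 lay between WT 4 and the other 4. After scaling the values were 3.97, 3.29, 2.06 and 1.43 in RORasg/sg hearts, against 4.41, 4.79, 4.88, 3.72 and 4.95 in WT hearts. The groups overlapped only through RORasg/sg 1, which was above WT 4.

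Its log2 difference was -1.86 (SE 0.524, 95% interval -3.01 to -0.72), a 3.64-fold lower mean in RORasg/sg, with group means of 2.69 ± 1.15 in RORasg/sg (SD, n = 4) and 4.55 ± 0.508 in WT hearts (SD, n = 5). It did not pass the threshold after adjustment (limma adjusted p = 0.315, rank 436 of 36405 probes), and the exact two-sided permutation p was 0.0317, where the smallest possible is 0.0159. Within slide 1 the difference was -0.97, within slide 2 it was -2.56, and with slide as a block it was -1.76 (limma adjusted p = 0.401). Over the 5 brighter arrays, with RORasg/sg 1 as the only mutant heart, it was -0.79, against a median of -0.27 over all probes there. Over the 4 dimmer arrays, with WT 4 as the only WT heart, it was -1.46. With brightness as a covariate, where no probe passed, it was -1.18. Without RORasg/sg 1 it was -2.29 (limma adjusted p = 0.0106). Cavin4 was below 0, and below the median of all probes, under all 28 alternatives. With a single probe, its difference could not change under the filters, probe rules and eBayes settings among these.

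**Figure D4:**
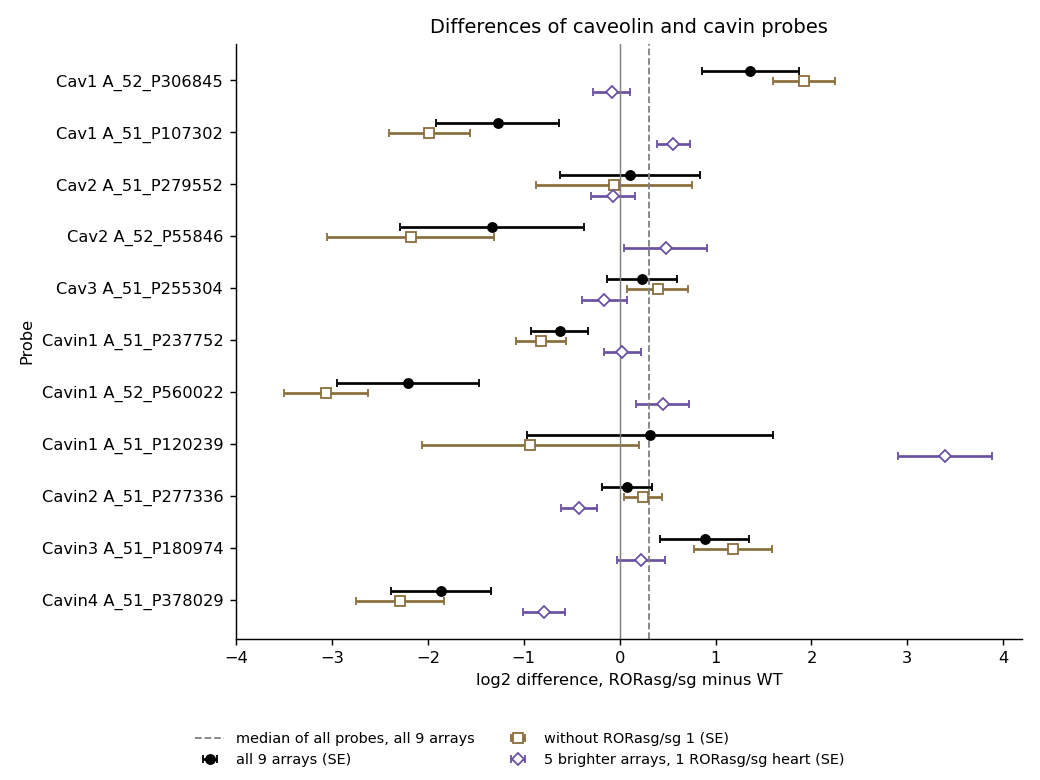
Log2 difference, RORasg/sg minus WT, of the 11 kept probes (x axis, bars SE) over all 9 arrays, without RORasg/sg 1, and over the 5 brighter arrays, where RORasg/sg is 1 heart. Cavin4 stays left of 0 in all 3, at -1.86, -2.29 and -0.79, while the Cav1 probes and Cavin1 A_52_P560022 change sign over the brighter arrays.

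Marker genes of 7 cell types or muscle kinds were set beside these values. Endothelial markers had a lower mean in RORasg/sg hearts for 5 of 7 genes, with a median log2 difference of -1.28. Their summed level, in units of the 75th percentile of the array, was 25.2 to 66.1 in RORasg/sg and 23.7 to 41.2 in WT hearts, so the sum and the median did not run the same way. Tie1 was well above background on 2 of 4 and Tek on 3 of 4 RORasg/sg arrays. By heart, the median endothelial marker stood 0.33, -0.96, -2.43 and -1.94 from the WT mean in RORasg/sg hearts, against -0.05, 0.27, -0.02, -0.71 and 0.36 in WT hearts. The dimmer arrays were thus the 4 lowest.

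Cardiomyocyte markers had a lower mean in RORasg/sg for 6 of 7 genes (median -0.57), with a summed level of 337 to 658 in RORasg/sg and 429 to 564 in WT hearts. All 7 were well above background, matching the labelled tissue. Their median deviation by heart was 0.05, 0.06, -1.05 and -1.09 in RORasg/sg hearts, against -0.01, 0.08, 0.02, 0.16 and 0.05 in WT hearts. RORasg/sg 3 and 4, the hearts with the lowest Cavin4, were also the lowest in these markers. Adipocyte markers were lower in 2 of 6 genes (median 0.31), with summed levels of 1.06 to 1.90 in RORasg/sg and 0.678 to 3.28 in WT hearts. Smooth muscle and pericyte markers, of caveola-rich cells, had a higher mean in RORasg/sg for 4 and a lower mean for 3 of 7 genes (median 0.08), with summed levels of 62.1 to 122 in RORasg/sg and 60.3 to 132 in WT hearts. Fibroblast markers were higher for 3 and lower for 3 of 6 genes (median -0.07), with summed levels of 44.3 to 91.5 in RORasg/sg and 42.6 to 51.8 in WT hearts. Skeletal muscle markers were higher for 1 and lower for 3 of 4 measured genes (median -0.02), and their summed levels were 11.04 to 17.0 in RORasg/sg and 13.2 to 17.1 in WT hearts. Atrial markers were higher for 3 and lower for 1 of 4 genes (median 0.75), while their summed level was 4.97 to 9.87 in RORasg/sg and 7.25 to 23.5 in WT hearts. The part of cell composition in the member values was not tested.

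Among the members, profiles over the 9 hearts were compared by the root mean square difference of centred log2 values, each gene by its brightest kept probe. Cav3 and Cavin2 were closest (0.214 log2), then Cav1 and Cavin3 (0.428 log2). Cav1 and Cavin4 were farthest apart (2.13 log2), and Cavin1 and Cavin4 were 0.805 apart. Cav1 stands here for its probe A_52_P306845 only. Its probe A_51_P107302, with a difference of opposite sign, was not compared. The distances and nearest genes of Cav1 therefore hold for the first probe and not for the gene. Over 27686 genes, those nearest to Cav1 were Igfbp7 (0.0951 log2), Akt1 (0.104), Zfp740 (0.120), Rps3 (0.130) and Nid1 (0.153). Those nearest to Cav3 were BC006751 (0.133), Hcfc1r1 (0.140), Nono (0.142) and Rpl12 (0.145), after 1 probe without a gene symbol (0.118). All these points share arrays and scaling, so likeness includes the brightness pattern.

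Genes that shape caveolae or share the Cav3 complexes of muscle membrane were followed as a list of 20, of which 19 had a kept probe. In RORasg/sg hearts 13 had a higher and 6 a lower mean, where 38.3% of all probes had a difference below 0. Of the 19, 0 passed the threshold, where 0.00275% of all probes did. The median log2 difference was 0.25, close to the 0.31 of all probes. At an unadjusted limma p under 0.05 there were 1 higher (4.5% of all probes) and 1 lower (8.27% of all probes). The 6 with the smallest p were Dag1, Bin1, Flna, Bves, Ehd2 and Flot2.

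Dag1, whose product dystroglycan links the membrane to the matrix, had 4.09, 1.79, -0.26 and -1.03 in RORasg/sg hearts, against 3.40, 3.85, 3.80, 1.88 and 3.83 in WT hearts. Its log2 difference was -2.20 (SE 0.908, limma adjusted p = 0.378). Bin1, a membrane-bending protein of transverse tubules, had -1.13, 3.04, 2.07 and 2.43 in RORasg/sg hearts, against -0.75, -0.66, -0.88, 1.49 and -1.30 in WT hearts. Its log2 difference was 2.02 (SE 0.849, limma adjusted p = 0.381). In both genes RORasg/sg 1 lay with the brighter WT hearts and WT 4 towards the dimmer mutant hearts.

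The other 4 named genes had smaller differences. Flna, an actin crosslinker that binds caveolin, had a log2 difference of 0.69 (limma adjusted p = 0.403), and Bves, a Popeye-domain protein that binds Cav3, had 0.81 (adjusted p = 0.424). Ehd2, an ATPase at the neck of caveolae, had 0.56 (adjusted p = 0.474), and Flot2, a flotillin of a separate membrane domain, had -0.74 (adjusted p = 0.504). None of these was past the threshold.

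**Figure D5:**
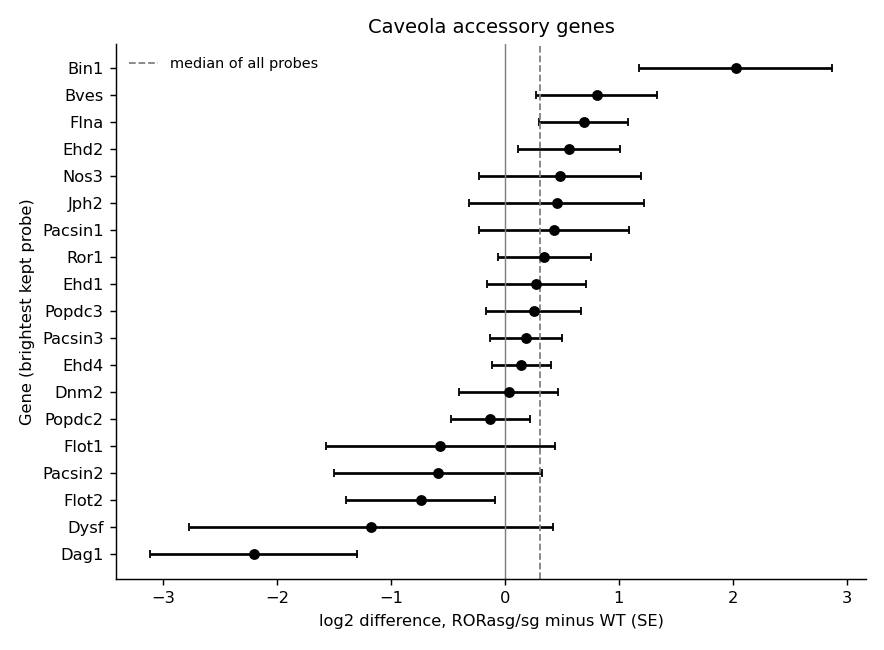
Log2 difference, RORasg/sg minus WT (x axis, bars SE), of the 19 measured caveola accessory genes, each by its brightest kept probe, sorted by size. Bin1 and Dag1 lie farthest from 0, at 2.02 and -2.20, and the others lie closer to it.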

How the data were processed

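Processed spot intensity was the deposited unit: per the file headers, Feature Extraction 12.0.0.7 (grid 014868, build mm9) wrote it on a linear scale after subtracting background, with no scaling across arrays. Agilent Feature Extraction 12 is also named in the submitters' processing notes. A deposited table of array values proved identical to these intensities and was not used separately.

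Spots flagged as outliers were left out and spots of a probe averaged. Intensities were scaled to each array's 75th percentile over non-control spots and put on the log2 scale, as the form in which all differences are given. Of 41174 probes, the 36405 that exceeded background clearly on 4 or more of the 9 arrays were kept. Names came from accessions in a RefSeq list for GRCm38.p6 (28223 probes, 19096 symbols).

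All kept probes were fitted in limma 3.58.1 (lmFit, eBayes with trend, R 4.3.3, data.table, version 1.17.8), with Benjamini-Hochberg adjustment over all of them and a threshold of 0.05. For single probes an exact two-sided permutation test over all splits of the 9 arrays was run, with a smallest possible p of 0.0159. Figures used matplotlib 3.10.9 in Python 3.11.15. The fit was tested on simulated data, drawn independently for each probe with the WT spread in both groups. That test did not cover a wider spread in RORasg/sg hearts or deviations shared by the probes of an array.

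A gene is represented by its kept probe with the highest mean. The text names every probe of the 7 members, the 6 accessory genes with the smallest p where none passed, Cpt1b, Rora, and the 5 genes most alike to Cav1 and to Cav3. Markers are given as lists. Members, lists, tests and alternatives were chosen with earlier results of these data known. The 28 alternatives covered scaling, background correction, filters, probe rules, slide and replicate blocks, array weights, brightness, eBayes settings and leaving out each heart. RORasg/sg 1 and 2 and WT 1 and 2 shared slide 1, RORasg/sg 3 and 4 and WT 3 and 4 slide 2, and WT 5 was on slide 3. The number of arrays limits the precision.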

Additional observations from a re-analysis of the deposited data

Results flagged for a closer look

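A heart far from the others of its genotype was found in 11 of 42 groups of hearts screened, where about 1 in 20 would be expected. The groups are probes on the same 9 arrays and are not independent, so a single array can be flagged many times. The count therefore cannot be judged against that rate. WT 4 accounted for 9 of the 11. It was the highest WT heart on Cav1 A_52_P306845 (5.22), Bin1 (1.49) and Ehd2 (3.93), and the lowest on Cav1 A_51_P107302 (2.19), both Cav2 probes, A_51_P279552 (-1.21) and A_52_P55846 (-4.78), Dag1 (1.88) and the Rora probes A_51_P477779 (1.51) and A_52_P652442 (1.56), all in scaled log2 signal.

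RORasg/sg 1 stood apart in the mutant group on 2 probes. It was the lowest RORasg/sg heart on Cav1 A_52_P306845 (3.94) and the highest on Flot2 (1.59).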

How the results depend on the processing

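Cavin4, Cavin3 and Cpt1b kept their sign under all 28 alternatives. Filters and eBayes settings cannot change the difference of a probe, so the 28 are not separate checks of a sign. The median of all probes moved with the scaling, at 0.31 with the 75th percentile, 0.25 with median scaling, 0.20 after quantile normalization and -0.26 unscaled, and the members' median was 0.07, 0.02, -0.31 and -0.50 in the same settings. Signs turned for Cavin2 after quantile normalization (-0.31) and normexp (-0.044), and unscaled for Cav2 A_51_P279552 (-0.46), Cav3 (-0.34), Cavin1 A_51_P120239 (-0.25) and Cavin2 (-0.50). Cav2 was -0.61 as the mean of its probes, Cavin1 A_51_P237752 was 0.032 within slide 1, and array weights gave Cav2 A_51_P279552 -0.64 and Cavin1 A_51_P120239 -1.30. Over the 5 brighter arrays, signs turned for Cav1 A_52_P306845 (-0.083), Cav1 A_51_P107302 (0.56), Cav2 A_51_P279552 (-0.066), Cav2 A_52_P55846 (0.48), Cav3 (-0.16), Cavin1 A_51_P237752 (0.027), Cavin1 A_52_P560022 (0.45) and Cavin2 (-0.43). Over the 4 dimmer arrays Cav2 A_52_P55846 was 0.76 and Cav3 -0.026, and with brightness as a covariate Cav2 A_52_P55846 was 0.26, Cav3 -0.034 and Cavin2 -0.15. Leaving out single hearts gave Cav2 A_51_P279552 -0.56 to 0.45, Cavin1 A_51_P120239 -0.93 to 1.41, Cavin2 -0.10 to 0.24 and Cav3 0.03 to 0.40. The causes were not tested.

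Of all probes 1 passed the threshold, against 4 unscaled. The count was 0 under normexp, with the filter on all 9 arrays, with the mean of a gene's probes, with slide as a block, with the replicate block, within slide 1, within slide 2, over the 4 dimmer arrays and with brightness as a covariate. Array weights, which gave RORasg/sg 1 a weight of 0.106, called 18049 probes (49.6%), and the 5 brighter arrays called 1351 (3.71%). Leaving out single hearts gave 0 to 12752, the highest count (35% of all probes) being without RORasg/sg 1. Member calls were 0, against 7 with array weights, 1 over the 5 brighter arrays (Cavin1 A_51_P120239, 3.39, with 1 RORasg/sg heart) and 0 to 6 leaving out single hearts. Of the 19 measured accessory genes 0 were called, against 9 with array weights and 0 to 5 leaving out single hearts, the 5 being without RORasg/sg 1. Replicate numbers did not pair the hearts: same-numbered deviations correlated at 0.07, -0.01, -0.34 and 0.40, and with the replicate block Cav3 was 0.25 (limma adjusted p = 0.815) and Cavin4 -1.76 (adjusted p = 0.231). Probes near background, such as Cavin1 A_51_P120239, have the least precision.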
